A study of Ovis aries with 12 samples.

Results

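The mitochondrial carriers of the SLC25 family were followed in the loin muscle longissimus dorsi of 12 lambs. All probe sets with a single gene symbol starting with SLC25A were taken from the array's gene annotation, and each gene was represented by its brightest probe set. This gave 27 carrier genes from 39 probe sets, out of 9155 named genes on the array. Of the 27 genes, 19 were bright enough to be tested and 8 were too dim.

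The callipyge lambs carried the genotype +/CLPG, with 1 copy of the callipyge allele, which causes an overgrowth of hindquarter and loin muscle that appears after birth. The normal lambs were wild type, +/+. Callipyge lambs were sampled at 10, 20 and 30 days of age with 2 lambs at each age, and normal lambs likewise, which gave 6 lambs of each genotype. All lambs nursed until shortly before sampling, and each lamb gave 1 bovine expression array, so the probes were made for cattle and read sheep RNA.

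Most SLC25 proteins sit in the inner membrane of the mitochondrion, while SLC25A17 is a carrier of peroxisomes. The family carries nucleotides, phosphate, carboxylic acids, amino acids, acylcarnitines and cofactors between the cytosol and the matrix. In muscle the ADP/ATP carriers and the phosphate carrier bring the substrates of ATP synthase in and take ATP out. The malate-aspartate shuttle, built from the oxoglutarate carrier and the aspartate/glutamate carriers, moves the reducing power of glycolysis into the matrix.

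Trimmed mean signals ran from 55.7 to 105.7 between arrays, and each array was scaled to their mean. All values below are log2 of the scaled intensity plus 16 unless stated, and differences are on that scale. Precision is limited by there being 12 arrays. First component scores followed age, from -22.0 to -12.4 at 10 days and from -1.33 to 4.81 at 20 days. The replicate 2 arrays at 30 days, callipyge and normal, had the highest scores, at 15.9 and 27.5. Those of replicate 1 at that age had 6.43 and 8.77. Results at 30 days are also given without the replicate 2 arrays, which leaves out the lambs farthest along this age course. The 6 tested skeletal muscle markers averaged 11.9 to 13.5, and 3 of 4 fat cell markers on the array (ADIPOQ, CIDEC and LEP) and 2 of 5 red cell markers (AHSP and ALAS2) were below the median brightness of 5.25. FABP4 lay just above it at 5.31, and HBA, HBB and CA2 at 6.32, 6.30 and 6.28. In bulk muscle, fewer cells of a type and less RNA per cell cannot be told apart.

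In callipyge muscle 1 carrier differed from normal muscle. SLC25A11, the oxoglutarate carrier that exchanges malate for oxoglutarate, fell to 0.735 of the normal level averaged over the ages. Its partner in the shuttle, the aspartate/glutamate carrier SLC25A12, lay lower by the estimate without passing the test. The phosphate carrier SLC25A3 and the ADP/ATP carrier SLC25A4 stood close to the normal level. In the same role, the wider intervals of SLC25A6 (-0.60 to 0.15) and SLC25A25 (-0.48 to 0.26) include a difference of the size seen for SLC25A11. Of the 19 tested carriers, 7 lay above 0 and 12 below, with a median difference of -0.04, against a median of -0.01 over all 12008 tested probe sets. A fall was called for 1 of the 19 with limma (adjusted p under 0.05), or 5.26%, while 0.316% of all tested probe sets were called as lower, 0.566% as higher and 0.883% in either direction. An unadjusted limma p under 0.05 was found for 3 of the 19 carriers and for 11.8% of all tested probe sets. With no scaling of the arrays the carriers' median was -0.23, and that of all tested probe sets was -0.19. The sign of the carriers' median rests on few arrays: it was 0.02 with 11 of 19 above 0 without both replicate 2 arrays at 30 days, and 0.01 with 11 above 0 without normal 30 day replicate 2 alone. It also turned, with 10 of 19 above 0, without callipyge 20 day replicate 1 (0.0004) or normal 20 day replicate 2 (0.0005).

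SLC25A11 stood at 10.11 and 10.39 in the callipyge lambs of 10 days, at 10.20 and 10.36 at 20 days and at 9.72 and 9.65 at 30 days. In normal lambs it stood at 10.93 and 10.94 at 10 days, at 10.47 and 10.61 at 20 days and at 10.19 and 9.94 at 30 days. At every age both callipyge lambs lay below both normal lambs, although the genotypes overlapped when the ages were pooled. With ages pooled, 0 of the 19 carriers had genotypes without overlap, against 1.03% of all tested probe sets. The mean was 10.07 ± 0.32 in callipyge lambs and 10.51 ± 0.40 in normal lambs (SD, n = 6 each, ages included). The difference was -0.44 ± 0.09 (SE), with a 95% interval of -0.64 to -0.24 and a limma adjusted p of 0.0462. SLC25A11 was the 1 carrier of 19 with this order in all 6 callipyge lambs, while of all tested probe sets 1.47% had it and 3.31% had it in either direction.

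The SLC25A11 call lies close to the threshold. It ended without any 1 of 11 of the 12 arrays, with a limma adjusted p of up to 0.149, and held only without normal 30 day replicate 2 (0.0449), while the difference ranged from -0.49 to -0.40. With no filter, no scaling, least squares and a replicate block the adjusted p was 0.0945, 0.0651, 0.143 and 0.0532, and without both replicate 2 arrays at 30 days the difference was -0.47 (adjusted p = 0.0814). A dimmer SLC25A11 probe set, below the brightness filter, gave -0.20.

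**Figure D1:**
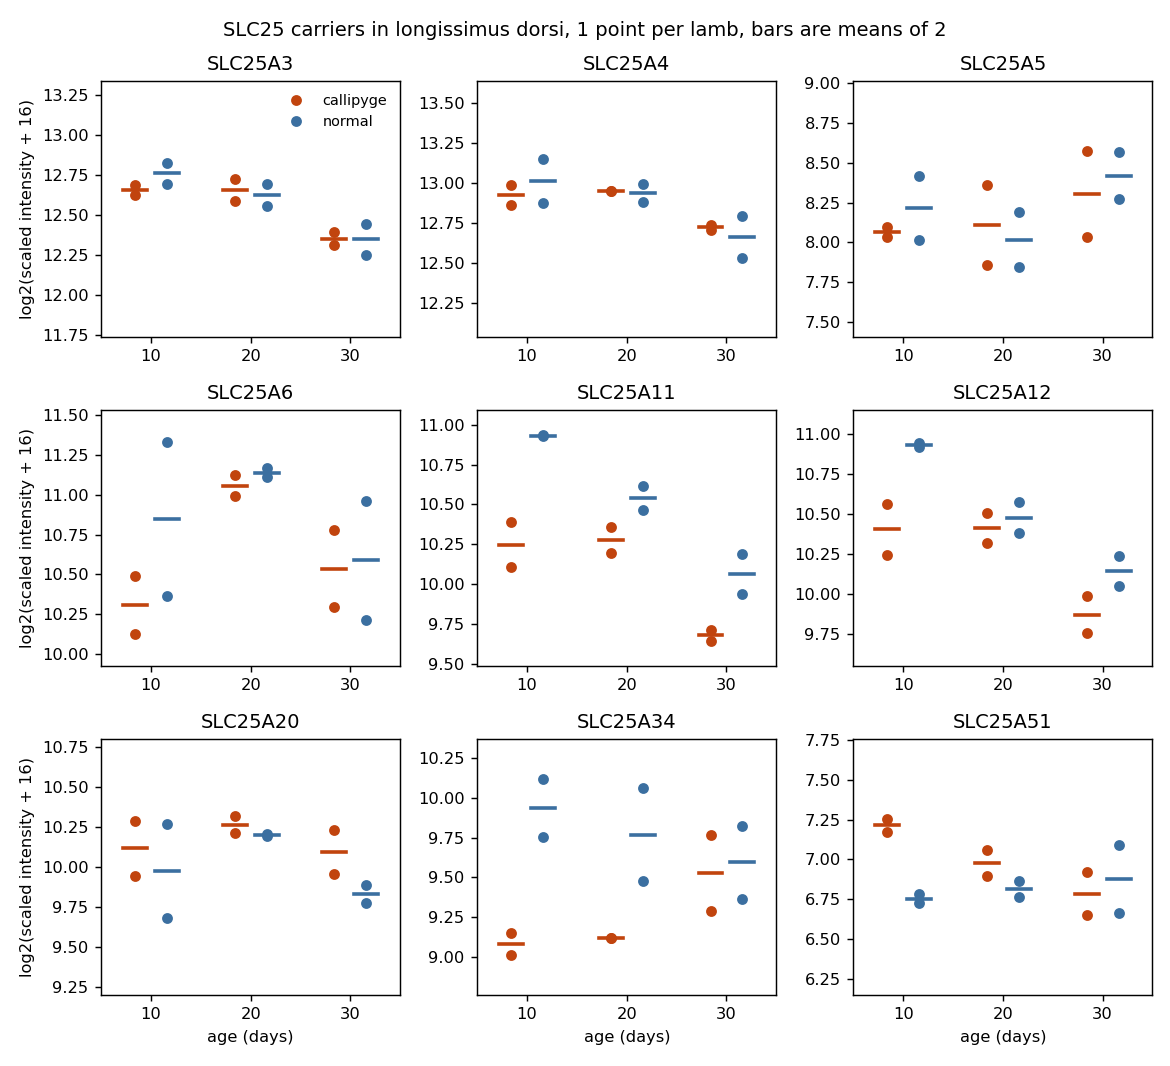
Level of 9 SLC25 genes in each lamb on the log2(scaled intensity + 16) scale by age in days, with callipyge lambs left of normal lambs, points for lambs and bars for the mean of 2. For SLC25A11 both callipyge points lie below both normal points at every age, and for SLC25A3 they do so at 10 days only. No carrier was called at a single age.

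SLC25A12, which carries aspartate out of the matrix in exchange for glutamate, stood at 10.25 and 10.57 in callipyge lambs of 10 days, at 10.32 and 10.51 at 20 days and at 9.99 and 9.76 at 30 days. The normal lambs stood at 10.92 and 10.95, then 10.38 and 10.58, then 10.24 and 10.05. Of the 6 callipyge lambs, 5 were lower than both age-matched normal lambs, and how many of all tested probe sets reach 5 was not counted. The genotype difference was -0.29 ± 0.10 (SE), with an interval of -0.50 to -0.08, and it missed the threshold (limma adjusted p = 0.244). Of its dimmer probe sets, one gave -0.38 (adjusted p = 0.322) and the other -0.02 (0.980). SLC25A1, the citrate carrier and the remaining tested member of this group, gave 0.08 ± 0.14 (adjusted p = 0.880), with -0.40, 0.21 and 0.43 at 10, 20 and 30 days.

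The carriers of ADP, ATP and phosphate gave no call for genotype, and all 5 tested members lay below 0, the lowest at -0.22. SLC25A4, the ADP/ATP carrier of heart and skeletal muscle, ranged from 12.71 to 12.99 (median 12.91) in callipyge lambs and from 12.53 to 13.15 (median 12.88) in normal lambs. Its interval of -0.16 to 0.16 leaves room only for small differences of either sign. SLC25A3, the phosphate carrier, ranged from 12.31 to 12.73 (median 12.61) in callipyge lambs and from 12.25 to 12.83 (median 12.62) in normal lambs, with an interval of -0.17 to 0.13. The genotypes overlapped for both genes with the ages pooled. At 10 days both callipyge lambs lay below both normal lambs for SLC25A3 (12.63 and 12.69, against 12.70 and 12.83). That difference of -0.10 did not pass (limma adjusted p = 0.896), and the share of all probe sets with this order was not counted. Over all ages the intervals of SLC25A3 and SLC25A4 exclude a difference of the size seen for SLC25A11. Whether the genotype differences of the carriers differ from each other was not tested.

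Of the other ADP/ATP carriers, SLC25A5 ranged from 7.86 to 8.57 (median 8.07) in callipyge lambs and from 7.85 to 8.57 (median 8.23) in normal lambs, a difference of -0.06 (interval -0.37 to 0.25). SLC25A6 ranged from 10.13 to 11.12 in callipyge lambs and from 10.22 to 11.33 in normal lambs, a difference of -0.22 (interval -0.60 to 0.15). Both genes overlapped between genotypes. SLC25A6 varied widely between lambs of a group: at 10 days the callipyge lambs stood at 10.49 and 10.13 and the normal lambs at 10.37 and 11.33. Its dimmer probe sets gave -0.23 and -0.11. SLC25A25, a calcium-regulated carrier of ATP-Mg and phosphate, gave -0.11 overall and -0.71 at 30 days, where its limma adjusted p was 0.636. The ADP/ATP carriers are close in sequence, so probe sets of one may read RNA of another.

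Among the carriers of fatty acids and amino acids 0 of 3 tested members were called. SLC25A20, which brings acylcarnitines into the matrix for fatty acid oxidation, ranged from 9.94 to 10.32 (median 10.22) in callipyge lambs and from 9.68 to 10.27 (median 10.04) in normal lambs. The groups overlapped, and the difference was 0.15 ± 0.12 (limma adjusted p = 0.670, interval -0.10 to 0.41), with -0.09 at its dimmer probe set. Of the 6 callipyge lambs, 5 were higher than both age-matched normal lambs, and how many of all tested probe sets reach 5 was not counted. SLC25A44, a carrier of branched-chain amino acids, gave 0.30 with a wide interval of -0.40 to 1.00, and SLC25A29, a carrier of basic amino acids, gave 0.14.

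The largest estimate among the tested carriers belonged to SLC25A34, an orphan member whose substrate is not settled. It stood at 9.02 and 9.15 in callipyge lambs of 10 days, at 9.12 and 9.12 at 20 days and at 9.29 and 9.77 at 30 days, against 9.75 and 10.11, then 9.48 and 10.06, then 9.82 and 9.36 in normal lambs. At 10 and 20 days both callipyge lambs lay below both normal lambs, without passing (limma adjusted p = 0.274 and 0.692). The share of all tested probe sets with this order at 1 age was not counted. At 30 days the groups overlapped. The difference averaged over ages was -0.52 ± 0.14 (SE, interval -0.82 to -0.22), which did not pass (limma adjusted p = 0.122). Its dimmer probe set gave -0.53 ± 0.12 (adjusted p = 0.0541), and both probe sets correlated at r = 0.742 over the 12 lambs, given as a description. By age the brighter probe set gave -0.85, -0.65 and -0.06 at 10, 20 and 30 days, with an interaction p of 0.0928 before adjustment and 0.992 after it.

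The carriers of nucleotides and cofactors and the iron carriers did not pass either. SLC25A51, the carrier of NAD+, averaged 6.99 ± 0.22 in callipyge lambs and 6.82 ± 0.15 in normal lambs (SD, n = 6 each), a difference of 0.18 ± 0.12 (limma adjusted p = 0.620). At 10 days both callipyge lambs, at 7.17 and 7.26, lay above both normal lambs, at 6.78 and 6.73, without passing (limma adjusted p = 0.546). How many of all tested probe sets have this order was not counted. The estimates of SLC25A16, SLC25A17, SLC25A26 and SLC25A33 ran from -0.19 to 0.10. Of these, SLC25A26 brings S-adenosylmethionine into the matrix and SLC25A33 carries pyrimidine nucleotides. The mitoferrins SLC25A28 and SLC25A37, which supply iron for haem and iron-sulfur clusters, gave -0.04 and -0.06.

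At single ages, with 2 lambs against 2, limma called 0 of the 19 carriers at 10, 20 or 30 days, where 0.0666%, 0.0333% and 0.05% of all tested probe sets were called (at 10 days 0.025% as lower and 0.0416% as higher). At an unadjusted p under 0.05 there were 4, 1 and 2 carriers of 19 at these ages, against 8.82%, 6.15% and 7.6% of all tested probe sets. The difference of SLC25A11 was -0.68, -0.26 and -0.39 at 10, 20 and 30 days, and that of SLC25A12 was -0.53, -0.07 and -0.27. The interaction of genotype with age was called for 0 carriers and 0% of all tested probe sets, with 0 carriers at an unadjusted p under 0.05, and least squares without shared variance also called 0 in each of these comparisons. No change of a carrier's genotype difference with age was thus detected with 6 residual degrees of freedom.

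**Figure D2:**
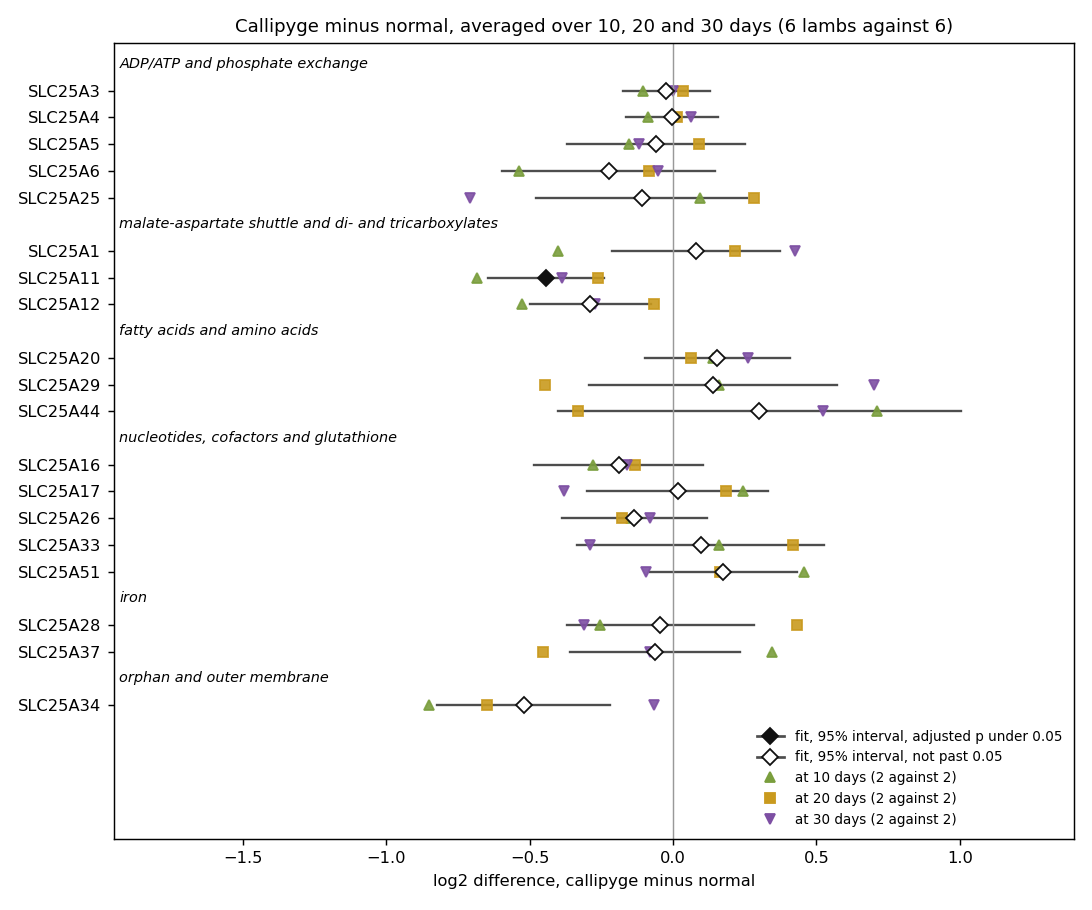
Log2 difference, callipyge minus normal, of the 19 tested SLC25 genes by role, with diamonds and lines for the estimate over all ages and its 95% interval and coloured marks for each age. The filled diamond of SLC25A11 at -0.44 marks the single call, and the intervals of SLC25A3 and SLC25A4 are the narrowest around 0.

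The carriers SLC25A11 and SLC25A12 of the same shuttle changed with age. On scaled values their estimates were larger than those for genotype, but the sizes were not tested against each other. Between 10 and 30 days, averaged over genotypes, SLC25A11 fell to 0.608 of its earlier level and SLC25A12 fell to 0.632. Of the 19 tested carriers 14 lay below 0 and 5 above, with a median of -0.13 against 0.00 over all tested probe sets. With no scaling of the arrays the carriers' median turned to 0.11 with 15 of 19 above 0, and that of all tested probe sets moved to 0.24; the step shifts both nearly alike, and the carriers as a group were not tested against all genes. The 2 calls are 10.5% of the carriers tested, while 1.26% of all tested probe sets were called as lower, 0.575% as higher and 1.83% in either direction. An unadjusted limma p under 0.05 was found for 4 of the 19 carriers and for 16.4% of all tested probe sets.

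The mean of SLC25A11 was 10.59 ± 0.41 at 10 days, 10.41 ± 0.17 at 20 days and 9.87 ± 0.25 at 30 days (SD, n = 4 each, both genotypes). Its change to 30 days was -0.72 ± 0.11 (SE, interval -0.96 to -0.47, limma adjusted p = 0.0129). The callipyge lambs changed by -0.57 and the normal lambs by -0.87. SLC25A12 averaged 10.67 ± 0.33, 10.45 ± 0.12 and 10.01 ± 0.20 at the 3 ages, a change of -0.66 ± 0.12 (interval -0.92 to -0.41, adjusted p = 0.0181). All 4 lambs of 30 days lay below all 4 lambs of 10 days for SLC25A12, but for SLC25A11 the normal lambs of 30 days reached 10.19, above the lowest callipyge lamb of 10 days at 10.11. The dimmer SLC25A12 probe sets gave -0.66 (adjusted p = 0.0848) and -0.23 (0.495), and the dim SLC25A11 probe set gave -0.07.

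For SLC25A11 and SLC25A12 these calls ended with no scaling (-0.42, adjusted p = 0.271, and -0.36, 0.328), where the median of all probe sets moved up, with least squares (0.0527 and 0.0811), and without both replicate 2 arrays at 30 days (-0.64, 0.0669, and -0.56, 0.101). Leaving out callipyge 10 day replicate 2 (adjusted p = 0.0615 and 0.0818) or normal 10 day replicate 1 (0.0610 and 0.0702) ended both calls, and that of SLC25A12 also ended without callipyge 30 day replicate 2 (0.0586), normal 10 day replicate 2 (0.0562) or normal 30 day replicate 2 (0.0554).

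**Figure D3:**
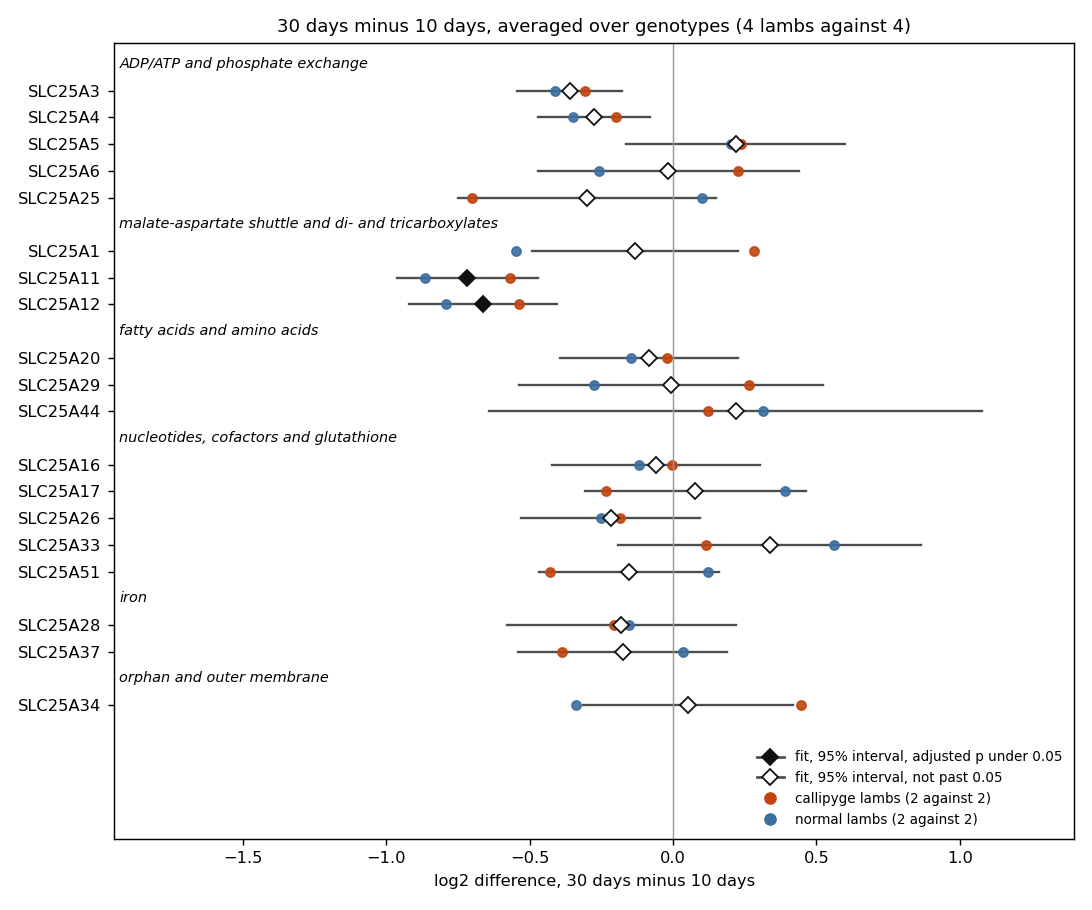
Log2 difference, 30 days minus 10 days, of the 19 tested SLC25 genes by role, with diamonds and lines for the estimate over both genotypes and its 95% interval and coloured points for callipyge and normal lambs. SLC25A11 at -0.72 and SLC25A12 at -0.66 are the filled diamonds, and for both genes each genotype lies below 0.

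The phosphate carrier and the muscle ADP/ATP carrier had lower scaled values at 30 days without passing the test. SLC25A3 ranged from 12.25 to 12.45 in the 4 lambs of 30 days and from 12.63 to 12.83 in the 4 lambs of 10 days, without overlap. Its change of -0.36 ± 0.09 narrowly missed the threshold (limma adjusted p = 0.0515). SLC25A4 ranged from 12.53 to 12.80 at 30 days and from 12.86 to 13.15 at 10 days, a change of -0.27 ± 0.09 (adjusted p = 0.149). Groups of 30 and 10 days did not overlap for 3 of the 19 carriers, SLC25A3, SLC25A4 and SLC25A12, and for 7.84% of all tested probe sets.

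Brightness moved with these values. Of the 120 tested probe sets with a mean above 12, which include SLC25A3 and SLC25A4, 85.8% lay below 0 between 10 and 30 days, with a median of -0.205. With quantile normalization, which gives every array the same distribution, the change of SLC25A3 was -0.14 (limma adjusted p = 0.317) and that of SLC25A4 was -0.11 (0.473). With no scaling they were -0.06 (0.868) and 0.03 (0.936), so the sign of SLC25A4 turned. The 321 probe sets between 10 and 11, where SLC25A11 and SLC25A12 lie, had a median of -0.07, and with quantile normalization those 2 genes stood at -0.64 (adjusted p = 0.0251) and -0.59 (0.0364). SLC25A3 passed with a pseudocount of 64 (0.0429), with a filter at the 75th percentile (0.0253) and with a replicate block (0.0421).

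The other ADP/ATP carriers did not share this pattern in their estimates. SLC25A5 gave 0.22 ± 0.18 and SLC25A6 gave -0.02 ± 0.21 between 10 and 30 days, and a dimmer SLC25A5 probe set gave -0.55 ± 0.23 (limma adjusted p = 0.258), so the probe sets of SLC25A5 disagreed in sign. SLC25A6 averaged 10.58, 11.10 and 10.56 at 10, 20 and 30 days. SLC25A20 averaged 10.05, 10.23 and 9.96 and SLC25A34 averaged 9.51, 9.44 and 9.56, with SDs of 0.06 to 0.52 (n = 4 each) for these 3 genes. Among the smaller steps, limma called 0 carriers from 10 to 20 days, with 2 at an unadjusted p under 0.05, and 0 from 20 to 30 days, with 6, while 0% and 0.00833% of all tested probe sets were called and 8.42% and 8.99% had such a p. Both steps use the same lambs of 20 days. SLC25A11 gave -0.18 in the first step and -0.54 in the next, and SLC25A12 gave -0.22 and -0.44. Mitoferrin-1, SLC25A37, gave -0.66 (adjusted p = 0.276) in the first step and 0.48 (adjusted p = 0.388) in the next.

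The 4 carriers with the smallest p for 30 against 10 days were set against each other lamb by lamb, in 6 pairs of genes. This choice builds in a shared age course, so the correlations are a description and carry no test. Over the 12 lambs SLC25A11 and SLC25A12 correlated at Pearson r = 0.977 and Spearman rho = 0.972. Without the 2 lambs farthest from the median r was 0.951, and within callipyge and normal lambs it was 0.983 and 0.988 (n = 6 each). In all 6 pairs of lambs of the same age and genotype the lamb with more SLC25A11 also had more SLC25A12. With quantile normalization r was 0.976. The lambs share the effects of age, genotype and array scaling, so r describes a joint course and not independent variation.

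SLC25A3 and SLC25A4 correlated at r = 0.929 and rho = 0.818, with 0.895 without the 2 farthest lambs and 0.912 and 0.957 within callipyge and normal lambs. With quantile normalization r was 0.683, and the direction matched in 4 of 6 pairs of lambs. Between the pairs, r ran from 0.644 for SLC25A11 with SLC25A4 to 0.837 for SLC25A12 with SLC25A3. With quantile normalization these were 0.448 and 0.751.

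**Figure D4:**
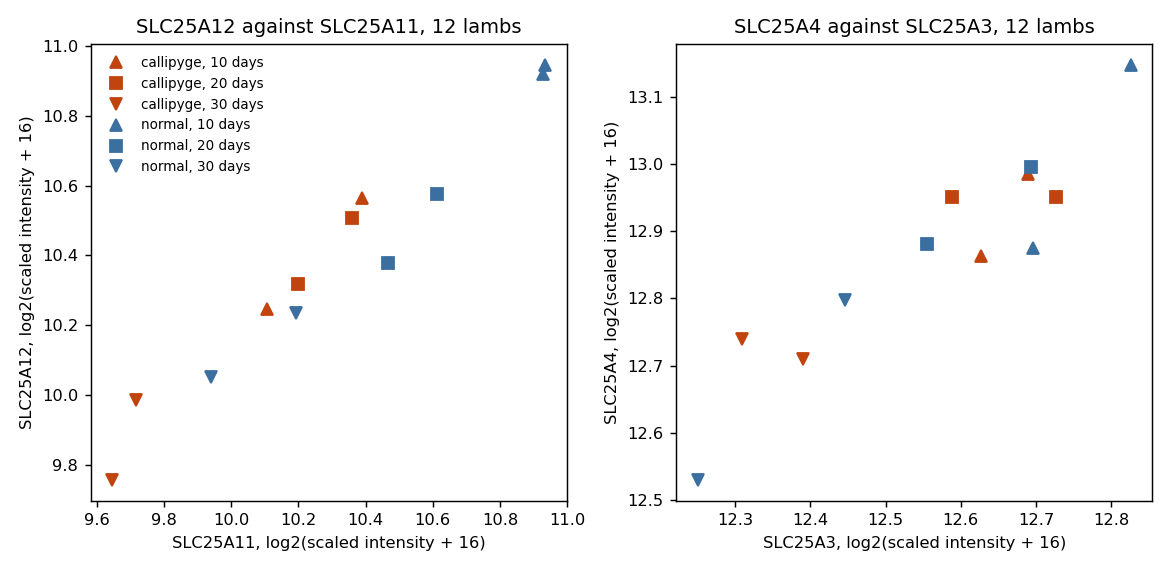
Levels of SLC25A12 against SLC25A11 and of SLC25A4 against SLC25A3 in 12 lambs on the log2(scaled intensity + 16) scale, coloured by genotype and shaped by age. The points for SLC25A11 and SLC25A12 lie along a line (r = 0.977) from callipyge lambs of 30 days at the low end to normal lambs of 10 days at the high end.

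The enzymes and transporters that work with the carriers were read from lists. Of 13 tested partner enzymes, which include shuttle and TCA cycle enzymes, creatine kinases and ATP synthase, 1 fell in callipyge muscle and 0 rose (median -0.11, against -0.01 over all tested probe sets). Of all tested probe sets 0.316% were called as lower and 0.566% as higher. The partner enzyme that fell was IDH2, the mitochondrial isocitrate dehydrogenase that makes oxoglutarate, at -0.93 ± 0.13 (limma adjusted p = 0.00582). This call held without any 1 array and ended with least squares (0.147). ACADM of fatty acid oxidation gave -1.12 (adjusted p = 0.0747), CRAT, the carnitine acetyltransferase, 0.31 (0.258) and ATP5F1B, the beta subunit of ATP synthase, -0.13 (0.485). The shuttle enzymes MDH2 and GOT2, the matrix malate dehydrogenase and aspartate aminotransferase, gave -0.19 (adjusted p = 0.274) and -0.38 (0.322). GOT1, the cytosolic aspartate aminotransferase, went the other way at 0.09 (adjusted p = 0.866). MDH1, the cytosolic malate dehydrogenase, was not analysed here.

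Between 10 and 30 days 2 of the 13 partner enzymes fell and 0 rose, with a median of -0.24. Of all tested probe sets 1.26% were called as lower and 0.575% as higher. The 2 enzymes were GLUD1, glutamate dehydrogenase, at -0.67 (limma adjusted p = 0.0445) and ATP5F1B at -0.38 (0.0432). With quantile normalization the median was -0.06, GLUD1 was still called and ATP5F1B stood at -0.19 (0.20). With no scaling the median of the 13 was 0.06 and 0 were called, with all tested probe sets at 0.24. ATP5F1A, IDH2, MDH2 and CKMT2, the mitochondrial creatine kinase, gave -0.30, -0.50, -0.24 and -0.29, and none passed. The shuttle enzymes GOT1 and GOT2 gave -0.34 (limma adjusted p = 0.341) and -0.13 (0.790).

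Of 23 tested genes of protein import into the mitochondrion, 22 lay below 0 at 30 days relative to 10 days (median -0.25). Of the 23, 2 were called as lower, against 1.26% of all tested probe sets. TIMM9, a small chaperone that escorts carrier proteins such as the SLC25 family to the inner membrane, fell by 0.86 ± 0.16 on the log2 scale (limma adjusted p = 0.0227). TOMM40, the channel of the outer membrane, fell by 0.69 ± 0.15 (adjusted p = 0.0351). With no scaling the median of the list was -0.03 with 12 of 23 below 0, and neither gene passed (0.122 and 0.277). TIMM8B, HSPA9, HSPE1 and TOMM70 gave -0.57, -0.52, -0.33 and -0.35 without passing. For genotype 0 of the 23 were called, with a median of -0.05. At an unadjusted limma p under 0.05 there were 4, against 11.8% of all tested probe sets. DNAJC19 gave -0.49 (adjusted p = 0.128), TOMM7 -0.35 (0.289), TIMM9 0.29 (0.420), TIMM17B 0.25 (0.423), TIMM44 -0.20 (0.484) and HSPA9 -0.22 (0.512).

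Other transport proteins of the mitochondrial membranes numbered 17 tested genes, of which 1 rose and 0 fell between 10 and 30 days (median -0.22, and 0.08 with no scaling). Of all tested probe sets 0.575% were called as higher and 1.26% as lower. UCP3, an uncoupling protein of skeletal muscle that belongs to the same carrier family under another symbol, rose by 0.80 ± 0.17 (limma adjusted p = 0.0324). VDAC2, a porin of the outer membrane, gave -0.36 (adjusted p = 0.0562), and MTCH2, MTX2, MPC1 and SFXN1 gave -0.46, -0.51, -0.44 and -0.36. For genotype 0 of the 17 were called (median -0.09). At an unadjusted limma p under 0.05 there were 4, against 11.8% of all tested probe sets. These 4 were UCP3 at 0.56 (adjusted p = 0.0914), MTX2 at 0.40 (0.198), CPT2 at -0.47 (0.263) and LETM1 at -0.35 (0.291). MTCH2 and SFXN3 gave -0.21 and -0.24. Without both replicate 2 arrays at 30 days 0 genes of the 3 lists were called for age, and for genotype IDH2 and DNAJC19 were called as lower. With 1 array left out at a time, the age calls held in 8 of 12 fits for TIMM9 (limma adjusted p = 0.0353 to 0.0974), in 6 for UCP3 (0.0352 to 0.124), in 2 for TOMM40 (0.0477 to 0.121) and in 1 each for ATP5F1B (0.0361 to 0.155) and GLUD1 (0.0443 to 0.168). All 5 calls also ended with no filter on dim probe sets (0.0588 to 0.171) and with least squares (0.0834 to 0.154).

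**Figure D5:**
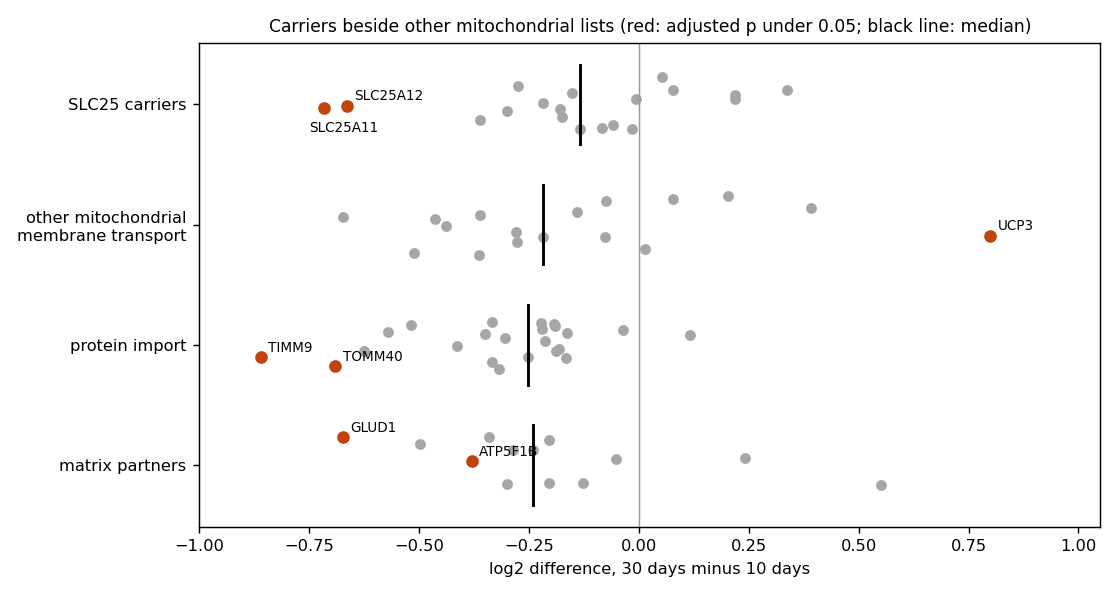
Log2 difference, 30 days minus 10 days, of each tested gene among the SLC25 carriers, other mitochondrial membrane transport, protein import and partner enzymes. A black line marks each median and red points mark calls. The medians lie at -0.13, -0.22, -0.25 and -0.24, and UCP3 at 0.80 stands opposite to the other called genes.

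Markers of fibre types and other cells are given beside these results, and their part in them was not tested. None of the marker genes was called for genotype or for age. All 7 tested slow fibre markers lay below 0 for genotype (median -0.20), and 0 were called. At an unadjusted limma p under 0.05 there were 2, against 11.8% of all tested probe sets. The summed scaled intensity of the 7 markers ran from 25644 to 33701 in callipyge lambs and from 30636 to 41447 in normal lambs. All 6 tested fast fibre markers lay above 0 (median 0.10), with sums of 46936 to 57913 in callipyge and 41205 to 53015 in normal lambs, which overlap. Between 10 and 30 days 4 of 7 slow fibre markers lay above 0 (median 0.04), with sums of 30316 to 38174 at 30 days and 27405 to 34460 at 10 days. All 6 fast fibre markers lay below 0 (median -0.16), with sums of 41205 to 51556 at 30 days and 50555 to 55713 at 10 days. These 6 markers all have a mean above 12. Of all tested probe sets that bright, 85.8% lay below 0 between 10 and 30 days (median -0.205). All 3 tested red cell markers lay below 0 for genotype (median -0.54), with sums of 148 to 242 in callipyge and 196 to 315 in normal lambs.

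Of 5 tested endothelial markers 4 lay below 0 for genotype (median -0.22) and all 5 above 0 between 10 and 30 days (median 0.19). Of 5 fibroblast markers 3 lay below 0 for genotype (median -0.17) and 4 below 0 for age (-0.27). All 3 tested immune markers lay above 0 for genotype (median 0.07) and for age (0.21). The 6 skeletal muscle markers lay above 0 in 5 cases for genotype (median 0.06) and in 0 for age (-0.19). They averaged 11.9 to 13.5, and tested probe sets with a mean above 12 had a median of -0.205 for age. FABP4, the 1 tested fat marker, gave -0.14 and -0.12, and the 1 tested nerve marker gave -0.21 and -0.08.

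The 8 carriers too dim to test were SLC25A14, SLC25A15, SLC25A21, SLC25A30, SLC25A38, SLC25A40, SLC25A42 and SLC25A48. Their values lay between 4.02 and 5.94 in the 12 lambs, and their genotype differences between -0.22 and 0.14. Their differences between 30 and 10 days ran from -0.47 for SLC25A48 to 0.52 for SLC25A42. SLC25A42 carries coenzyme A into the matrix, SLC25A15 is the ornithine carrier of the urea cycle and SLC25A38 is a glycine carrier needed for haem synthesis. At this brightness the pseudocount holds differences down, and no difference of these genes was tested.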

How the data were processed

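Total RNA of 12 lambs, labelled with biotin, was read on 1 Affymetrix bovine array per lamb. The authors deposited linear intensities, 1 for each probe set, made with MAS5 in GCOS, per the submitters' processing notes; versions and scaling target are not given in the sources used here. Samples were grouped by title. Trimmed means (2% left out at each end) differed by 1.90 times, so each array was scaled to their mean of 79.2. Values were taken as log2 of scaled intensity plus 16. Of 24128 probe sets, 112 controls and those below the median brightness of 5.25 were left out, which left 12008. Gene symbols are those of the platform annotation (1 symbol for 13292 probe sets, several for 86, none for 10638).

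limma 3.58.1 in R 4.3.3 fitted a mean per group for all tested probe sets, with a trend of variance on brightness, and p-values were adjusted by Benjamini-Hochberg over all of them with a threshold of 0.05. There were 8 comparisons. The fit was tested on simulated data. Values by lamb are given for carriers that passed, the 4 with the smallest p for genotype and for age, and 7 carriers named whatever their p. Other genes are given by list, with up to 6 of the smallest p, and the shuttle enzymes GOT1 and GOT2 beside them. The members, lists and alternatives were chosen with earlier results of these data known. Alternatives were pseudocounts of 1 and 64, other filters and scalings, array weights, least squares, a replicate block, other probe sets, and arrays left out. Figures were drawn with matplotlib 3.10.9.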

Additional observations from a re-analysis of the deposited data

Results flagged for a closer look

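For SLC25A34, callipyge 30 day replicate 2 stood at 9.77, apart from the other 5 callipyge lambs, of which the nearest was at 9.29. The gap was 0.635 of the range of the 6 lambs, just past Dixon's 95% limit for 6 values. The 9 carriers with values by lamb gave 18 such groups of 6 lambs, and chance flags about 1 in 20. The lambs differ in age. This array is 1 of the replicate 2 arrays at 30 days with high scores on the first component, which followed age. Its part in the value was not tested.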

How the results depend on the processing

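For genotype averaged over ages, 1 carrier was called as reported, and 0 with no filter on dim probe sets, with no scaling, with ordinary least squares, with the replicate block and without both replicate 2 arrays at 30 days; with 1 array left out the count ran from 0 to 1. For 30 against 10 days, 2 were called as reported, and 0 with no scaling, with ordinary least squares and without both of these arrays; with 1 array left out it ran from 0 to 2, with 0 without callipyge 10 day replicate 2 or normal 10 day replicate 1. In the other 6 comparisons the count was 0 under all 11 alternatives and with each array left out. Over all probe sets the genotype calls numbered 106, 47 with no filter, 3 with least squares and 32 without both replicate 2 arrays at 30 days, and the age calls 220, 15 with least squares and 1 without these arrays.

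SLC25A11 stayed below 0 in both comparisons, and SLC25A12 likewise, under every alternative run. The labels number the biological replicates and do not say whether same-numbered lambs share anything else. Over 15 pairs of groups the deviations of same-numbered lambs correlated from -0.06 to 0.11 over all tested probe sets. A batch acting on part of the probe sets or at 1 age was not tested. With 1 array left out, the remaining lamb of that group is assumed to vary like the others. The depth of the dim carriers' signal limits what can be said of them.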
